A study of Mus musculus with 24 samples.

Results

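Liver of mice that lack Dbp, Tef and Hlf, genes for PAR bZip transcription factors, was compared between the dusk hours, ZT08 and ZT12, and the dawn hours, ZT20 and ZT24. ZT is zeitgeber time, counted in hours from lights on. The comparison used 8 of the 24 libraries of the series, chosen by genotype and time alone: 4 knockout libraries of the dusk hours and 4 of the dawn hours, matched by the set letter I or P in their names. It describes the day-night programme of transcripts that ran without the 3 factors.

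The series sampled liver every 4 h at 6 times (ZT04 to ZT24), with 2 libraries per time in each of 2 genotypes. Knockout mice are labelled Hlf-/-/Dbp-/-/Tef-/- and wild-type mice Hlf+/+/Dbp+/+/Tef+/+. All animals were 12 to 16 weeks old and fed ad libitum. No Cre or transgene is named, so the deletion was taken as present in all cells, and its exons, the sex of the mice, the light schedule and the meaning of the letters I, P and M are not given in the labels. Whether the 2 libraries of a time are from 2 different animals is not stated, so the spread behind each p-value is that between libraries and could be technical alone. The 4 knockout libraries of ZT04 and ZT16 served as points outside the comparison, and the 8 wild-type libraries of the same 4 times as its counterpart.

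The liver clock is a loop of transcription and repression. ARNTL pairs with CLOCK or NPAS2 and activates genes through E-boxes, among them those of its own repressors, the Period and cryptochrome proteins, and those of the REV-ERB receptors, which repress Arntl. DBP, TEF and HLF form an output arm: they are driven by the loop and activate genes through D-boxes, a site that NFIL3 binds as a repressor. Feeding, temperature and hormones such as glucocorticoids also drive daily rhythms in liver.

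The 8 knockout libraries held 14807940 to 17214706 counts each. Values below are CPM, counts per 1000000 of the TMM-scaled library size, with set I before set P at each time, and differences are log2 values of the dusk hours minus the dawn hours with the standard error (SE) of edgeR's quasi-likelihood test. The deleted genes checked the labels. Dbp (chromosome 7, 45705088 to 45710203) had 4 counts over all 12 knockout libraries and reached 56.8 CPM in wild type at ZT08. Tef and Hlf kept residual reads, described below. Hepatocyte genes were abundant in each of the 8 knockout libraries, where the 16 tested albumin and apolipoprotein genes summed to 59590 CPM or more. In contrast, 6 of 9 pancreatic acinar and 4 of 6 skeletal muscle markers had no count in any of the 8 libraries. All acinar markers together summed to 11.37 to 27.93 CPM, and all muscle markers to 0.3431 to 1.067 CPM. The adipocyte markers summed to 1072 to 2567 CPM, and the members behind that sum are not given here. Paired knockout libraries of a time differed by a median of 0.165 on the log2 scale, paired wild-type libraries by 0.311. The 4 wild-type libraries of set I stood apart in how gene values followed GC content. For genes above a minimum abundance, log2 values were taken relative to each gene's median over the 16 libraries of both genotypes. In wild-type set I these values correlated with GC content at r of 0.273 to 0.679 across genes. The r was −0.365 to 0.0493 in the 8 knockout libraries and −0.211 to 0.115 in wild-type set P.

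Of 14332 genes tested, 2846 differed between dusk and dawn hours at an adjusted p under 0.05 (edgeR), or 19.9%. There were 1401 genes higher at dusk (9.78%) and 1445 lower at dusk (10.1%). Most changes were small: 948 of the higher and 847 of the lower genes changed by less than 1.5-fold. Among the higher genes 180 changed at least 2-fold and 30 at least 4-fold, against 275 and 70 among the lower genes. The median called change was 0.42 for higher and −0.50 for lower genes, while the median over all genes tested was 0.00070. The 4 dusk libraries lay entirely above the 4 dawn libraries for 1277 of the 14332 genes (8.91%) and entirely below them for 1178 (8.22%), 17.1% in all, which included 940 of the higher and 911 of the lower calls. Calls of higher genes fell from 1401 to 916 without ZT08 set I, to 855 without ZT08 set P and to 908 without ZT12 set I.

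Both comparisons 12 h apart that make up the contrast carried the programme. ZT08 against ZT20 called 1900 genes (13.3%; 6.3% higher and 6.96% lower) and ZT12 against ZT24 called 1676 (11.7%; 5.92% higher and 5.78% lower). For ZT08 against ZT20, 903 higher calls fell to 321, 262, 280 and 482 without ZT08 set I, ZT08 set P, ZT20 set I and ZT20 set P, and for ZT12 against ZT24, 848 fell to 320, 386 and 491 without ZT12 set I, ZT24 set I and ZT24 set P. Of the 1401 higher genes, 1332 had the same sign in both, 314 were called in both, and 312 were called in neither. Of the 1445 lower genes, 1385 had the same sign in both, 377 were called in both, and 335 in neither. These counts describe the contrast and do not support it, because it is the mean of those comparisons.

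**Figure D1:**
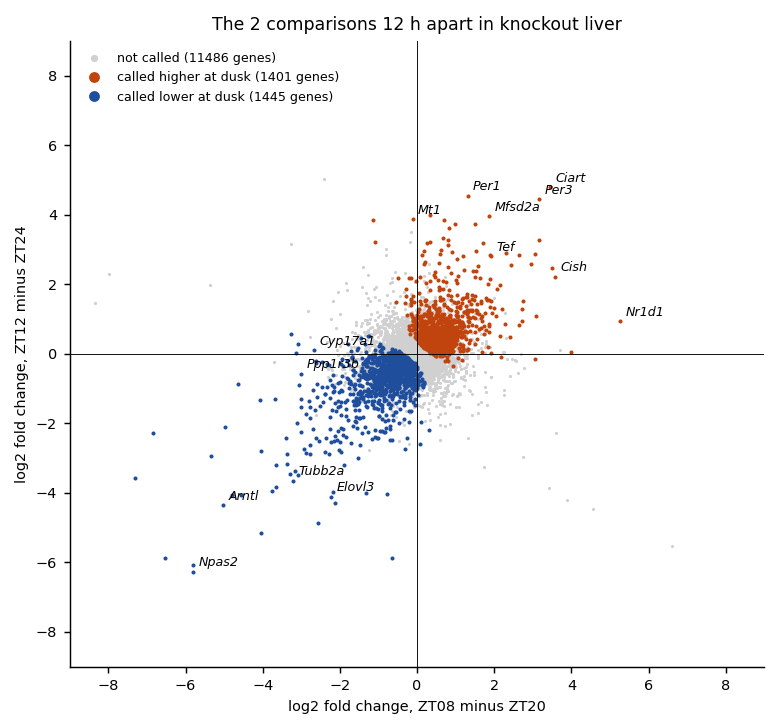
Log2 fold changes of ZT08 against ZT20 (horizontal axis) and of ZT12 against ZT24 (vertical axis) for the 14332 genes tested in knockout liver, with the 1401 genes called higher at dusk in orange, the 1445 called lower in blue and genes not called in grey. Most called genes lie in the quadrants where both comparisons have 1 sign, Arntl and Npas2 at the far lower left and Ciart and Per3 at the upper right, while Nr1d1 lies far along the ZT08 axis and Mt1 along the ZT12 axis.

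The libraries of ZT04 and ZT16, which the dusk-dawn fit of 8 libraries did not use, had median positions between dawn and dusk and nearer to dawn. With the dawn mean set to 0% and the dusk mean to 100% on a log2(CPM + 0.5) scale, the median position of the 1401 higher genes was 30% at ZT04 and 31.1% at ZT16. For the 1445 lower genes it was 29.8% and 32.2%. Many single genes lay outside that range. The highest of the 6 time means fell at ZT08 for 670, ZT12 for 624, ZT04 for 38 and ZT16 for 68 of the higher genes. Their lowest fell at ZT04 for 184 and at ZT16 for 268. Among the lower genes the highest fell at ZT20 for 530, at ZT24 for 492, at ZT16 for 251 and at ZT04 for 170. Their lowest fell at ZT04 for 51 and at ZT16 for 114. Counts at ZT08, ZT12, ZT20 and ZT24 follow in part from the choice of genes, which used those times.

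The core loop ran with large differences in knockout liver. Of the 6 tested Period, cryptochrome and Ciart genes 5 were higher at dusk and 1, Cry1, was lower, with a median of 1.86. Of the REV-ERB, DEC and Nfil3 repressors 4 of 5 were higher and 1, Nfil3, was lower. Over all genes tested the shares were 9.78% higher and 10.1% lower, and these lists were chosen with earlier results of these data known. The activators Arntl, Npas2 and Clock were lower at dusk. Arntl2, a paralog of Arntl, was too low to test, and Rorb had no count in any library.

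The proximal promoters of 6 called clock genes are shown here as examples that hold 1 of the short sites through which the loop acts. Those of Arntl and Npas2, which changed most, are not shown. They are RefSeq sequences of GRCm38.p6, read 5′ to 3′ on the gene's strand and covering the 250 bases before the annotated start. In the first 4 (Ciart, chr3:95882229-95882478 on the minus strand; Per1, chr11:69098699-69098948 on the plus strand; Tef, chr15:81802423-81802672 on the plus strand; Bhlhe41, chr6:145865421-145865670 on the minus strand) capitals mark the E-box CACGTG. In Per3 (chr4:151044666-151044915, minus strand) they mark the D-box TTATGTAA, and in Nfil3 (chr13:52981040-52981289, minus strand) they mark TGACCTA, the ROR and REV-ERB element core TAGGTCA read on the other strand.
Ciart: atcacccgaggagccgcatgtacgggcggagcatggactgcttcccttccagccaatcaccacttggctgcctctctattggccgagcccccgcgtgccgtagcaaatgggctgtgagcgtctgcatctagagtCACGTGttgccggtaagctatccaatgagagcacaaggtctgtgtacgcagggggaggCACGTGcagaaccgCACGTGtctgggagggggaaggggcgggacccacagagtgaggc
Per1: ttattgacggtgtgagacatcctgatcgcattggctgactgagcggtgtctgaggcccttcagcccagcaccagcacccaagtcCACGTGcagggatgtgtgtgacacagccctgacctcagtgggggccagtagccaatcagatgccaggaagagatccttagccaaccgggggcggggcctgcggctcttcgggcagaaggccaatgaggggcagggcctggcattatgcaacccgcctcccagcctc
Tef: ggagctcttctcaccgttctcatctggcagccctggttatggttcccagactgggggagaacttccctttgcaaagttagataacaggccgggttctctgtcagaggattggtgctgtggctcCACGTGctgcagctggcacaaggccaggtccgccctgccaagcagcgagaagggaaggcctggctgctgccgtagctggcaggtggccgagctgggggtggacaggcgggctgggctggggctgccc
Bhlhe41: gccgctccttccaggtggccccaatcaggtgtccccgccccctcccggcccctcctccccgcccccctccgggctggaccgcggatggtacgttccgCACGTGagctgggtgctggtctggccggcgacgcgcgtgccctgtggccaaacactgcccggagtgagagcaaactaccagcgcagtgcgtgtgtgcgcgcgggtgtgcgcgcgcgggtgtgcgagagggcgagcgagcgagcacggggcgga
Per3: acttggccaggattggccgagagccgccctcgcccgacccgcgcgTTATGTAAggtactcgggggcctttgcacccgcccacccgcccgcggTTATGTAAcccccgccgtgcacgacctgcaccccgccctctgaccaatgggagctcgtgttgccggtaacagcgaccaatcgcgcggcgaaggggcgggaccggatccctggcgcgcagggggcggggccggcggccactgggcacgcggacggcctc
Nfil3: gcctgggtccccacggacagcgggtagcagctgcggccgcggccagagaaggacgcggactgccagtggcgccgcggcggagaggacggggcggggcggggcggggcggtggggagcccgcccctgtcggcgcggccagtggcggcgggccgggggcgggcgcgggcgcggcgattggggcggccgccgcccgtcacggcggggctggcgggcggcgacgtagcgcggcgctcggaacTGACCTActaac

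Ciart has 3 E-boxes in this window, Per1, Tef and Bhlhe41 have 1 each, and Per3 has 2 D-boxes. Per1 and Tef each have a further annotated start whose window is not shown; that of Per1 holds no E-box and that of Tef holds 1. Across the 300 bases from 250 before to 50 after each start, searched on both strands, CACGTG was in 12.8% of promoters of genes higher at dusk, 9.37% of those lower at dusk, 9.60% of those of all genes tested and 7.15% of all promoters in the table. TAGGTCA was in 1.56% of promoters of higher genes, 3.03% of those of lower genes, 2.03% of those tested and 2.61% of all. The D-box TTATGTAA was in 0.781%, 1.06%, 0.623% and 0.938%, and its other form TTACGTAA in 0.355%, 0.0704%, 0.163% and 0.119%. The heat shock element GAANNTTC was in 4.54%, 5.85%, 5.92% and 7.86%, and the sterol element TCACNCCAC in 1.42%, 1.69%, 1.22% and 1.24%. Promoters matched by symbol for 1080 of the 1401 higher genes, 1064 of the 1445 lower genes and 10522 of the genes tested.

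With the D-box factors deleted, 100 tested genes had either D-box form in a promoter. Of these, 14 were higher and 16 lower at dusk, or 30% called, against 20.4% of the 10522 tested genes with a promoter. In wild type 14 of the 100 were called, beside 13.1% of all genes tested, with or without a promoter. The wild-type share among genes with a promoter was not taken. Wild type came from another fit, which estimated a larger spread over all genes (common dispersion 0.0363, against 0.00966 in the knockout fit). The wild-type count is therefore not comparable with that of knockout, and the difference between genotypes was not tested over these genes. A match describes letters in a window and not a bound site.

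Ciart, a circadian repressor that binds ARNTL (also called Chrono), showed 10.2 and 11.2 CPM at ZT08, 14.3 and 14.4 at ZT12, 0.799 and 1.16 at ZT20, and 0.522 and 0.505 at ZT24. All 4 dusk libraries lay far above all 4 dawn libraries, a log2 difference of 4.12 (SE 0.15, edgeR adjusted p = 4.3e-07). Per3, a Period gene, showed 28, 24.5, 26.2 and 21.4 CPM in the dusk libraries and 2.95, 2.94, 0.811 and 1.35 in the dawn libraries (3.80, SE 0.14, edgeR adjusted p = 4.19e-07). Per1, the Period gene that glucocorticoids also induce, showed 32.6, 33.8, 46.9 and 42.5 CPM at dusk and 10.9, 16.0, 2.09 and 1.74 at dawn (2.93, SE 0.13, edgeR adjusted p = 1.05e-06). For both genes the dusk and dawn libraries were apart, and within the dawn hours ZT24 was lower than ZT20.

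Per2 and Cry1 followed later phases, so their dusk and dawn values overlapped. Per2 showed 41.1 and 36.7 CPM at ZT08, 53.8 and 68.1 at ZT12, 47.7 and 47.2 at ZT20 and 15.6 and 18 at ZT24, and its highest time mean was at ZT16. Its averaged difference was 0.79 (SE 0.09, edgeR adjusted p = 0.000295). Cry1 showed 9.05 and 8.86 CPM at ZT08, 19.3 and 19.5 at ZT12, 46.4 and 52.9 at ZT20 and 18.4 and 27.6 at ZT24 (−1.35, SE 0.10, edgeR adjusted p = 3.47e-05). Cry2, its paralog, was higher in all 4 dusk libraries, at 44.1 to 51.7 CPM against 23.4 to 36.7 at dawn (0.67, SE 0.06).

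The activator Arntl (chromosome 7, 113207465 to 113314126) was near its trough in all dusk libraries, with 1.08 and 1.14 CPM at ZT08 and 1.70 and 2.28 at ZT12. It stood at 37.0 and 36.2 CPM at ZT20 and 41.4 and 41.1 at ZT24, a difference of −4.70 (SE 0.10, edgeR adjusted p = 6.16e-08). Npas2 (chromosome 1, 39193731 to 39363236), which can replace CLOCK as the partner of ARNTL, had 0.117 to 0.228 CPM in the dusk libraries and 14.1, 9.31, 13.8 and 14.1 in the dawn libraries. It had the largest fall named here, −6.04 (SE 0.24, edgeR adjusted p = 6.01e-07), and the size of that fall rests on very low dusk values. Clock itself showed 29 to 50 CPM at dusk and 83.5 to 124 at dawn with no overlap (−1.51, SE 0.10, edgeR adjusted p = 1.45e-05).

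Rora, which encodes a receptor that activates Arntl, had a difference of −0.22, a call lost on leaving out any single library other than ZT08 set I.

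The repressors of Arntl opposed it. Nr1d1, which encodes REV-ERB alpha, fell steeply across the dusk hours and rose again before lights on. It showed 88.4 and 75.9 CPM at ZT08, 49.6 and 29.9 at ZT12, 1.78 and 2.60 at ZT20, and 30.9 and 12.0 at ZT24, and its ranges overlapped at ZT12 and ZT24 (3.10, SE 0.21, edgeR adjusted p = 2e-05). Nr1d2, which encodes REV-ERB beta, was higher in all 4 dusk libraries, at 120 to 157 CPM against 12.5 to 31.2 (2.98, SE 0.15). Bhlhe41, encoding the E-box repressor DEC2, stood at 14.6 and 9.72 CPM at ZT08 and 3.87 and 3.76 at ZT12, against 0.406 to 1.60 at dawn (2.96, SE 0.20). Its paralog Bhlhe40 had a difference of 0.43, and its call was lost on leaving out any of the dusk libraries or either ZT20 library.

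Nfil3, the D-box repressor, was the mirror image of the deleted activators and remained strongly rhythmic without them. It showed 5.75 and 6.41 CPM at ZT08, 8.97 and 10.2 at ZT12, 48.6 and 48.5 at ZT20, and 47.3 and 43.3 at ZT24. The dusk libraries were all low and the dawn libraries all high (−2.62, SE 0.08, edgeR adjusted p = 1.69e-07).

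Residual transcripts of the deleted genes kept a day-night difference. Tef (chromosome 15, 81802421 to 81826863) showed 28.4 and 25.8 CPM at ZT08, 30.1 and 23.0 at ZT12, 7.19 and 7.19 at ZT20 and 4.0 and 3.54 at ZT24 (2.36, SE 0.09, edgeR adjusted p = 6.59e-07). Wild-type Tef stood at 302 ± 21.0 CPM at dusk and 89.9 ± 59.6 at dawn (SD, n = 4), so the knockout level was low at both ends while the direction was shared. Hlf (chromosome 11, 90336536 to 90390895) showed 1.59, 1.72, 3.34 and 2.62 CPM at dusk and 1.29, 1.37, 0.522 and 0.112 at dawn (1.77, SE 0.30, edgeR adjusted p = 0.00353), against 89.3 ± 6.66 and 58.8 ± 4.94 CPM in wild type. Exon counts were not analysed here, and the transcribed parts of either gene are therefore not known.

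**Figure D2:**
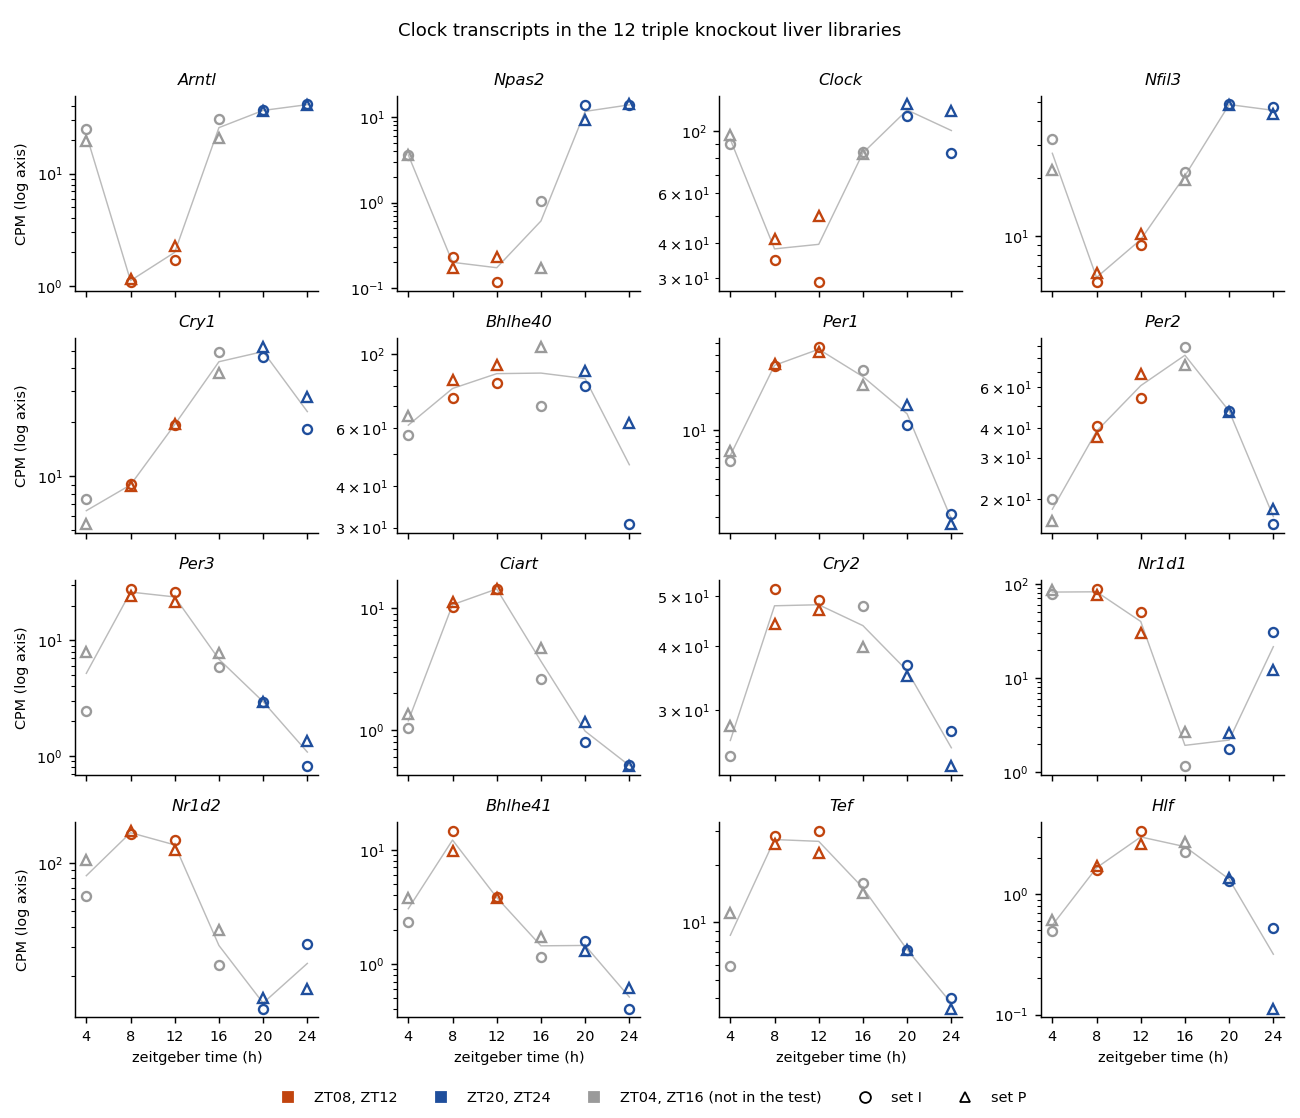
CPM (log axis) of 16 clock transcripts against zeitgeber time in hours in the 12 knockout libraries, with dusk hours in orange, dawn hours in blue, ZT04 and ZT16 in grey, circles for set I, triangles for set P and a grey line through the time means. Arntl, Npas2, Clock and Nfil3 are low in all 4 dusk libraries, Per1, Per3, Ciart, Nr1d2, Bhlhe41 and Tef are high in them, and Per2, Cry1, Bhlhe40 and Nr1d1 overlap between dusk and dawn.

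Most genes of a list of liver clock outputs, chosen with earlier results of these data known, were called in knockout. Of 28 tested, 13 were higher at dusk and 12 lower, with a median of 0.25. Of all genes tested 9.78% were higher and 10.1% lower. The dusk and dawn libraries did not overlap for 23 of the 28, against 17.1% of all genes tested. Leaving out any single library gave 12 to 14 higher and 12 lower. In wild type, which was fitted with the 16 libraries of both genotypes, 12 were higher and 12 lower. The difference between genotypes was not tested over the list.

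Upp2, uridine phosphorylase 2, showed 630, 783, 746 and 759 CPM at dusk and 179, 206, 115 and 94.0 at dawn (2.36, SE 0.10, edgeR adjusted p = 1.09e-06). Usp2, a deubiquitinase whose targets include clock proteins, showed 19.9 and 22.6 CPM at ZT08, 41.2 and 37.2 at ZT12, 8.36 and 13.5 at ZT20 and 2.55 and 3.37 at ZT24 (2.36, SE 0.13, edgeR adjusted p = 6.21e-06). Both were high in every dusk library. Noct, encoding the rhythmic phosphatase nocturnin, was higher by 2.0 (SE 0.09), and its lowest dusk library, 13.8 CPM, was just above its highest dawn library, 13.5.

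Por encodes the reductase that passes electrons to all microsomal P450 enzymes. Its mean was 446 ± 148 CPM at dusk and 145 ± 37.1 at dawn (SD, n = 4), a difference of 1.60 (SE 0.10, edgeR adjusted p = 1.34e-05). St3gal5, the GM3 ganglioside synthase, was higher by 1.35 (SE 0.06), and Wee1, the mitotic inhibitor kinase and an E-box target, by 1.56 (SE 0.16), with 12.8 to 17.2 CPM at dusk and 2.61 to 6.95 at dawn. Among the outputs with the opposite phase, Avpr1a, a vasopressin receptor, showed 16.6 to 20.4 CPM at dusk and 59.9 to 79.6 at dawn (−1.88, SE 0.06, edgeR adjusted p = 2.14e-07). Ppard, a lipid-sensing nuclear receptor, showed 5.78 to 8.14 CPM at dusk and 31.8 to 43.2 at dawn (−2.41, SE 0.11). Neither had overlapping libraries.

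Cdkn1a, the cell cycle inhibitor p21 and a REV-ERB target, showed 1.42, 3.43, 2.17 and 4.27 CPM at dusk and 26.1, 23.8, 15.1 and 19.3 at dawn (−2.91, SE 0.20, edgeR adjusted p = 1.86e-05). All 4 dusk libraries were below all 4 dawn libraries.

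The naming rule took 15 rises and 15 falls, those of greatest size among genes with separate libraries, which include 5 clock genes and Tef among the rises and 3 clock genes among the falls. Outside the clock the largest rise was that of Mfsd2a (chromosome 4, 122946850 to 122961188), a transporter of lysophospholipids that carry omega-3 fatty acids. It showed 38.7, 37.3, 73.6 and 53.4 CPM at dusk and 5.29, 16.2, 4.23 and 3.99 at dawn (2.91, SE 0.27, edgeR adjusted p = 0.000102). Cish, a suppressor of cytokine signalling induced by STAT5, showed 39.5 and 24.6 CPM at ZT08, 19.9 and 9.62 at ZT12 and 1.84 to 3.49 at dawn (2.89, SE 0.23, edgeR adjusted p = 5.06e-05). Every dusk library was above every dawn library in both genes.

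Ccne1, which encodes cyclin E1, showed 3.76, 3.26, 7.80 and 3.70 CPM at dusk against 0.342 to 1.12 at dawn (2.77, SE 0.29, edgeR adjusted p = 0.000234). Rgs16, a brake on G protein signalling, showed 5.18 to 9.67 CPM against 0.369 to 1.99 (2.74, SE 0.39, edgeR adjusted p = 0.00131). Mthfd1l, a mitochondrial enzyme of formate production, showed 3.07, 3.55, 8.85 and 6.55 CPM against 0.861, 1.44, 0.348 and 1.68 (2.24, SE 0.33, edgeR adjusted p = 0.00159). These 3 were low-abundance transcripts with clear separation.

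Pfkfb3, an activator of glycolysis through fructose 2,6-bisphosphate, rose by 2.05 (SE 0.20), from 6.84 to 12.3 CPM at dawn to 23.3 to 52.0 at dusk. Slc5a6, a vitamin transporter for biotin and pantothenate, rose by the same 2.05 (SE 0.09, edgeR adjusted p = 1.19e-06), with 25.9 to 34.1 CPM at dusk and 6.85 to 8.42 at dawn.

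The falls were steeper. Tubb2a (chromosome 13, 34074274 to 34078007), a beta-tubulin, showed 9.10, 11, 7.50 and 9.39 CPM at dusk and 92.0, 93.8, 86.9 and 129 at dawn (−3.44, SE 0.10, edgeR adjusted p = 1.45e-07). Celsr1 (chromosome 15, 85898929 to 86033777), an adhesion receptor of the cadherin family known from planar cell polarity, showed 3.81, 2.34, 3.22 and 3.76 CPM at dusk and 40.6, 37.9, 25.8 and 38.9 at dawn (−3.44, SE 0.17, edgeR adjusted p = 2.37e-06). The groups were separate for both by several-fold.

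Chka, the choline kinase that opens phosphatidylcholine synthesis, showed 20, 18.6, 26.6 and 28.2 CPM at dusk and 143, 151, 164 and 203 at dawn (−2.83, SE 0.07, edgeR adjusted p = 1.45e-07). Pdk4, which inhibits pyruvate dehydrogenase, showed 2.64 to 4.21 CPM at dusk and 18.1 to 33 at dawn (−2.84, SE 0.19, edgeR adjusted p = 1.73e-05). Dhrs9, a retinol dehydrogenase, fell by 3.26 (SE 0.19), and Clic3, a chloride intracellular channel protein, fell by 3.13 (SE 0.17). Loxl4, a lysyl oxidase of the matrix, fell by 3.08 (SE 0.36), with 1 dawn library, ZT24 set P, at 33.9 CPM and the others at 4.06 to 8.05.

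Some of the deepest falls were in genes with few reads. Slc34a2, a sodium-phosphate cotransporter, showed 0.228 to 0.455 CPM at dusk and 3.65 to 10.9 at dawn (−4.32, SE 0.37, edgeR adjusted p = 7.7e-05). Chrm3, the muscarinic receptor M3, showed 0, 0.0572, 0.117 and 1.71 CPM at dusk and 5.35, 3.01, 7.76 and 2.25 at dawn (−4.56, SE 0.81, edgeR adjusted p = 0.00444). The 8 wild-type libraries of the same times held at most 0.120 CPM of it. The size of the knockout fold rests on dusk counts near 0.

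Elovl3 (chromosome 19, 46131897 to 46135694, plus strand), an elongase of very long fatty acids and a known marker of circadian liver output, showed 63.6, 66.5, 27 and 54.8 CPM at dusk and 220, 418, 734 and 603 at dawn (−3.17, SE 0.21, edgeR adjusted p = 1.45e-05). Pitx3, a homeodomain factor, also fell, from 2.34 to 5.27 CPM at dawn to 0.0572 to 0.398 at dusk (−4.42, SE 0.37, edgeR adjusted p = 6.22e-05). Pitx3 lies on the opposite strand (chromosome 19, 46135685 to 46148326) and its annotated span overlaps the end of Elovl3. The strand setting of the counting is not given in the sources used here, so reads of these neighbours cannot be told apart.

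Gene groups were read against the share of all tested genes called, 9.78% higher and 10.1% lower. Genes of glucose and glycogen handling were called often: 11 of 28 tested were higher at dusk and 6 lower, with a median of 0.13. Without single libraries the counts were 8 to 12 higher and 5 or 6 lower. Gys2, liver glycogen synthase, showed 292, 305, 328 and 295 CPM at dusk and 113, 157, 109 and 120 at dawn (1.3, SE 0.09, edgeR adjusted p = 2.37e-05). The subunit that targets protein phosphatase 1 to glycogen, Ppp1r3c, went the other way, with 49.4, 43.1, 29 and 34.9 CPM at dusk and 254, 234, 220 and 235 at dawn (−2.61, SE 0.08, edgeR adjusted p = 1.94e-07). Neither overlapped between dusk and dawn.

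The last enzymes of glucose output were split. G6pc, glucose-6-phosphatase, showed 91.5 and 117 CPM at ZT08, 196 and 167 at ZT12, 499 and 545 at ZT20 and 223 and 229 at ZT24 (−1.32, SE 0.09, edgeR adjusted p = 2.16e-05). Its carrier for glucose-6-phosphate, Slc37a4, was higher at dusk (0.62, SE 0.10). Pck1, the entry enzyme of gluconeogenesis, showed 1294, 1176, 2796 and 1769 CPM at dusk and 1044, 1122, 466 and 302 at dawn (1.38, SE 0.13, edgeR adjusted p = 0.000124), its highest dawn library just below its lowest dusk library. The glucose transporter Slc2a2 (0.59, SE 0.07), pyruvate kinase Pklr (0.43, SE 0.06) and fructose bisphosphatase Fbp1 (0.35, SE 0.07) were also higher at dusk, the call of Fbp1 being lost without ZT08 set I.

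Of 27 genes of fatty acid and triglyceride synthesis, 8 were higher at dusk and 11 lower, with a median of −0.03, and 7 to 10 and 9 to 12 without single libraries. Thrsp, a lipogenic nuclear protein (Spot14), showed 601, 787, 677 and 1067 CPM at dusk and 264, 435, 96.2 and 170 at dawn (1.88, SE 0.08, edgeR adjusted p = 1.2e-06). Srebf1, the lipogenic transcription factor SREBP1, showed 328, 317, 273 and 324 CPM at dusk and 173, 167, 181 and 182 at dawn (0.82, SE 0.07, edgeR adjusted p = 6.99e-05). The enzymes did not share that direction. Fatty acid synthase Fasn (−0.44, SE 0.09), ATP citrate lyase Acly (−0.37, SE 0.08), the desaturase Scd1 (−0.57, SE 0.12) and acetyl-CoA carboxylase 2 Acacb (−1.07, SE 0.10) were lower at dusk, with overlapping libraries for the 3 other than Acacb. The calls of Fasn and Scd1 were lost without ZT08 set I.

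On the oxidation side, 7 of 38 PPAR-alpha and fatty acid oxidation genes were higher and 4 lower, with a median of 0.12. Cpt1a, the carnitine transferase that admits fatty acids to mitochondria, showed 656, 605, 640 and 580 CPM at dusk and 306, 317, 313 and 255 at dawn (1.06, SE 0.08, edgeR adjusted p = 2.3e-05). The receptor Ppara showed 151 to 173 CPM at dusk and 97.6 to 110 at dawn (0.63, SE 0.06). Both were separate in all libraries. Acot1, an acyl-CoA thioesterase, was lower by −1.38 (SE 0.14).

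Cholesterol synthesis genes were called lower only: 11 of 26 tested were lower at dusk and 0 higher by edgeR, with a median of −0.28. DESeq2 also gave 0 higher, and 1 were higher at an unadjusted p under 0.05, which 33.4% of all genes tested reached in either direction. The count of lower genes was 7 without ZT08 set I, without ZT20 set I or without ZT24 set P, and without ZT08 set I 1 gene was higher. It was 5 without the set letter in the fit and 1 with all 24 libraries in it. Mvd, which decarboxylates mevalonate diphosphate, showed 19.2, 33.7, 22.6 and 42.3 CPM at dusk and 60.2, 64.9, 39.8 and 66.8 at dawn (−1.01, SE 0.12, edgeR adjusted p = 0.000506). At each time set P was higher than set I, and 1 dawn library lay below the highest dusk library. Hmgcs1, at the head of the pathway, showed 327, 667, 439 and 734 CPM at dusk and 1017, 997, 599 and 1376 at dawn (−0.92, SE 0.17, edgeR adjusted p = 0.0055). The dusk and dawn libraries overlapped for all but 1 of the 26 genes.

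Bile and sterol export differed by role. Abcg5 and Abcg8, whose products together export sterols into bile, were both higher at dusk: Abcg5 showed 183 to 233 CPM against 67.4 to 105 (1.33, SE 0.07, edgeR adjusted p = 3.9e-06) and Abcg8 245 to 279 against 92.1 to 150 (1.27, SE 0.08, edgeR adjusted p = 9.69e-06). The bile salt pump Abcb11 showed 542, 669, 456 and 465 CPM at dusk and 920, 910, 894 and 1148 at dawn (−0.87, SE 0.09, edgeR adjusted p = 0.000181). Cyp8b1, the sterol 12-alpha-hydroxylase, was also lower at dusk, at 105 to 263 CPM against 291 to 362 (−0.76, SE 0.12). Cyp7a1, the rate-limiting enzyme of bile acid synthesis, had overlapping libraries and 0.69 (SE 0.17, edgeR adjusted p = 0.0208), a call lost without ZT08 set I, either ZT12 library or ZT20 set P. In the list of 20 genes 5 were higher and 7 lower. The higher count was 2 without ZT08 set I and 3 without ZT12 set I, and the lower count 4 without ZT08 set I and 3 without ZT08 set P.

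In amino acid breakdown, 6 of 36 genes were higher at dusk and 6 lower, counts that came to 3 higher without ZT08 set I and 3 lower without ZT08 set P or ZT12 set P. Sds, serine dehydratase, showed 102, 91.8, 111 and 86.2 CPM at dusk and 41.0, 38.7, 34.3 and 29.1 at dawn (1.46, SE 0.06, edgeR adjusted p = 1.09e-06). Gpt2, an alanine transaminase, was higher by 0.65 (SE 0.11), and Cbs, which condenses homocysteine with serine, lower by −0.62 (SE 0.09). All 3 had separate libraries.

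Of 20 polyamine and folate-cycle genes 5 were higher and 5 lower. Amd1, which supplies the aminopropyl donor of polyamines, was higher by 0.62 (SE 0.06). Bhmt, the betaine route of homocysteine remethylation, showed 1397, 1039, 805 and 647 CPM at dusk and 1383 to 1527 at dawn (−0.65, SE 0.09), with an overlap at ZT08. Nampt, the rate-limiting enzyme of NAD salvage and an E-box target, showed 140 and 162 CPM at ZT08, 273 and 289 at ZT12, 81.3 and 109 at ZT20 and 52.0 and 84.5 at ZT24 (1.38, SE 0.09, edgeR adjusted p = 1.9e-05).

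Alas1, the rate-limiting enzyme of heme synthesis, showed 477, 648, 608 and 498 CPM at dusk and 193, 294, 72.8 and 149 at dawn (1.82, SE 0.17, edgeR adjusted p = 0.000134). Of 14 iron-handling genes 1 was higher and 3 lower at dusk. The iron exporter Slc40a1 (ferroportin) was higher, with 300 to 356 CPM against 196 to 242 (0.57, SE 0.07). Hamp, which encodes hepcidin, the hormone that removes ferroportin from membranes, showed 72.1 and 23.3 CPM at ZT08, 17.1 and 6.03 at ZT12, 82.0 and 54.8 at ZT20 and 65 and 53.7 at ZT24 (−1.57, SE 0.20, edgeR adjusted p = 0.000803). Its low values were at ZT12, while ZT08 set I overlapped the dawn range. Hamp and Hamp2 are near-identical copies, so their split of reads is uncertain. The iron importer Slc11a2 was lower in all dusk libraries (−0.60, SE 0.06).

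Drug metabolism genes were called in both directions, beside 9.78% higher and 10.1% lower of all genes tested. Of 28 tested P450 genes of drug metabolism 3 were higher and 2 lower, and of 37 conjugating enzymes 4 were higher and 7 lower. The higher conjugating enzymes came to 2 without ZT12 set I, and the lower P450 genes to 1 without ZT08 set I or ZT24 set P, 4 without ZT08 set P and 5 without ZT12 set I. Cyp2a5, a coumarin hydroxylase, showed 833 and 1306 CPM at ZT08, 1597 and 1817 at ZT12, 467 and 781 at ZT20 and 134 and 237 at ZT24 (2.03, SE 0.11, edgeR adjusted p = 4.08e-06). Its near-identical neighbour Cyp2a4 was higher by 1.40 (SE 0.14), and reads may have been split between them. Cyp2b10, a target of the receptor CAR, showed 0.284 to 0.762 CPM at dusk and 0.985 to 2.46 at dawn (−2.08, SE 0.35, edgeR adjusted p = 0.00349). In both genotypes its difference had this sign, −2.51 in wild type. Among transporters, the canalicular pump Abcc2 was higher at dusk with 1011 to 1297 CPM against 634 to 709 (0.75, SE 0.08), and the lactate and pyruvate carrier Slc16a1 was lower with 46.0 to 53.5 CPM against 90.6 to 112 (−1.0, SE 0.05, edgeR adjusted p = 4.02e-06).

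Glucocorticoids are a hormonal signal known to reach the liver clock from outside. Of 19 of their target genes 8 were higher at dusk and 4 lower, and without single libraries 6 to 8 and 3 to 6. Their median difference was 0.015. Fkbp5, a chaperone that glucocorticoids induce, showed 43.8 and 42.0 CPM at ZT08, 155 and 128 at ZT12, and 21.2 to 47.3 at dawn (1.41, SE 0.14, edgeR adjusted p = 0.000159), and ZT08 overlapped dawn. Errfi1, a feedback inhibitor of the EGF receptor, showed 1159, 1186, 1612 and 1392 CPM at dusk and 902, 970, 365 and 479 at dawn (1.08, SE 0.10). Members that moved the other way included Cdkn1a, described above.

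Heat shock protein genes were lower at dusk: 11 of 21 tested, with 0 higher by edgeR and by DESeq2, 1 higher at an unadjusted p under 0.05 and a median of −0.30. Leaving out single libraries gave 10 to 12 lower and 0 higher, and a fit of all 24 libraries gave 4 lower. Hsp90aa1, the inducible HSP90, showed 61.1, 89.3, 79.0 and 144 CPM at dusk and 206, 298, 112 and 291 at dawn (−1.27, SE 0.13, edgeR adjusted p = 0.000179). Hspa4l, an HSP110 relative, showed 17.1, 23.0, 17.7 and 29.9 CPM at dusk and 43.9, 58.4, 27.1 and 51.2 at dawn (−1.03, SE 0.09, edgeR adjusted p = 9.77e-05). In both genes set P was above set I at every time, and ZT24 set I lay below ZT12 set P, so the ranges overlapped. Dusk and dawn libraries were separate for 2 of the 21 genes.

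The 3 cold-inducible RNA-binding protein genes went the other way and were all higher at dusk. Rbm3 showed 36.1 to 44.0 CPM at dusk and 24.9 to 30.9 at dawn (0.58, SE 0.06, edgeR adjusted p = 0.000261), and Cirbp 18.7 to 29.6 against 15.3 to 17.7 (0.57, SE 0.08, edgeR adjusted p = 0.00135). The third, the splicing factor Srsf5, had 0.24 (SE 0.06), a call lost on leaving out any single library other than ZT12 set I.

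Among 22 unfolded protein response genes 9 were lower at dusk and 3 higher, and the lower count was 3 without ZT08 set P, without the set letter in the fit or with all 24 libraries in it. The chaperones Calr (−0.56, SE 0.08) and Pdia4 (−0.51, SE 0.06), which fold proteins in the endoplasmic reticulum, were lower. Herpud1, part of the machinery that removes misfolded proteins, was higher, with 186, 220, 251 and 313 CPM at dusk and 125, 142, 84.7 and 97.9 at dawn (1.11, SE 0.06, edgeR adjusted p = 3.21e-06). Of 17 tested amino acid stress genes 4 were higher and 3 lower, with a median of 0.012, the lower being Atf4, its relative Atf5 and Mthfd2. The lower count was 6 without ZT24 set I, 4 without ZT20 set P and 1 without any of the other 6 libraries or without the set letter. Among the higher genes, Chac1, a glutathione-cleaving enzyme, showed 5.64 to 10.1 CPM against 1.57 to 2.77 (1.90, SE 0.16, edgeR adjusted p = 7.47e-05) and Trib3, a pseudokinase, 4.04 to 11 against 2.09 to 2.58 (1.57, SE 0.15, edgeR adjusted p = 0.000152).

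In the growth hormone and IGF axis 5 of 19 genes were higher at dusk and 6 lower, and the higher count was 3 without ZT12 set I, ZT20 set I or ZT24 set I. The higher genes were Cish, Socs3, Igfbp4, Onecut1 and Cux2, and the lower included Stat5a, Stat5b, Igfbp3 and the insulin receptor adaptors Irs1 and Irs2. Irs1 showed 9.72 to 14.9 CPM at dusk and 20.4 to 33.5 at dawn (−1.0, SE 0.11, edgeR adjusted p = 0.000335). Irs2 was lower by −0.83 (SE 0.10). Of 17 immediate early genes 4 were higher (Myc, Klf10, Ier2 and Zfp36) and 3 lower (Ier5, Fos and Egr1), with 2 higher without ZT08 set P, ZT12 set I, ZT20 set I or ZT24 set P and 5 lower without ZT20 set P. Myc, a growth-promoting transcription factor, showed 17.5, 12.2, 6.33 and 6.32 CPM at dusk and 2.30 to 3.44 at dawn (1.74, SE 0.13, edgeR adjusted p = 3.05e-05). Fos, a subunit of AP-1, had 0.683 to 0.915 CPM at dusk and 1.24 to 2.61 at dawn (−1.32, SE 0.26, edgeR adjusted p = 0.00756). Egr1, a zinc finger factor, had 2.83 and 8.08 CPM at ZT20 and 45.6 and 25.2 at ZT24, so its −1.53 (SE 0.33) came from ZT24. It was −0.91 without ZT20 set P.

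The counts of 3 further lists moved with single libraries. Of 29 interferon response genes 9 were higher and 0 lower by edgeR (8 and 0 by DESeq2, 0 lower at an unadjusted p under 0.05), but the higher count was 4 without ZT08 set P, 3 without ZT12 set I and 5 without ZT20 set P or ZT24 set I. It was 4 without the set letter in the fit and 1 with all 24 libraries in it. Irf7, which drives the response, showed 43.7, 70.9, 49.7 and 38.4 CPM at dusk and 21.3 to 36.7 at dawn (0.94, SE 0.18, edgeR adjusted p = 0.00708). Of 25 cell cycle genes 8 were higher and 1 lower, with 3 or 4 higher on leaving out ZT08 set P, ZT12 set I or any of the 4 dawn libraries. Of 26 nuclear receptor genes 7 were higher and 7 lower, with 4 higher without ZT08 set I, ZT12 set I or ZT20 set I and 4 lower without ZT08 set I, ZT12 set P or ZT20 set P.

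Ribosomal and respiratory chain genes held few calls beside the 19.9% of all genes, while the proteasome was near that share. Of 74 cytosolic ribosomal protein genes 2 were higher and 1 lower, of 75 respiratory chain genes 4 were higher and 0 lower by edgeR (3 and 0 by DESeq2, 0 lower at an unadjusted p under 0.05), and of 38 proteasome genes 4 were higher and 3 lower. The higher respiratory chain count was 1 without ZT08 set P, ZT12 set I, either ZT20 library or ZT24 set P and 2 without ZT12 set P or the set letter. Ndufs5, a subunit of complex I, showed 29.5, 23.7, 18.3 and 22.3 CPM at dusk and 6.58, 12.3, 7.13 and 10.3 at dawn (1.39, SE 0.16, edgeR adjusted p = 0.000485). Its wild-type value was −0.22, and the difference between genotypes had an edgeR adjusted p of 0.122.

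**Figure D3:**
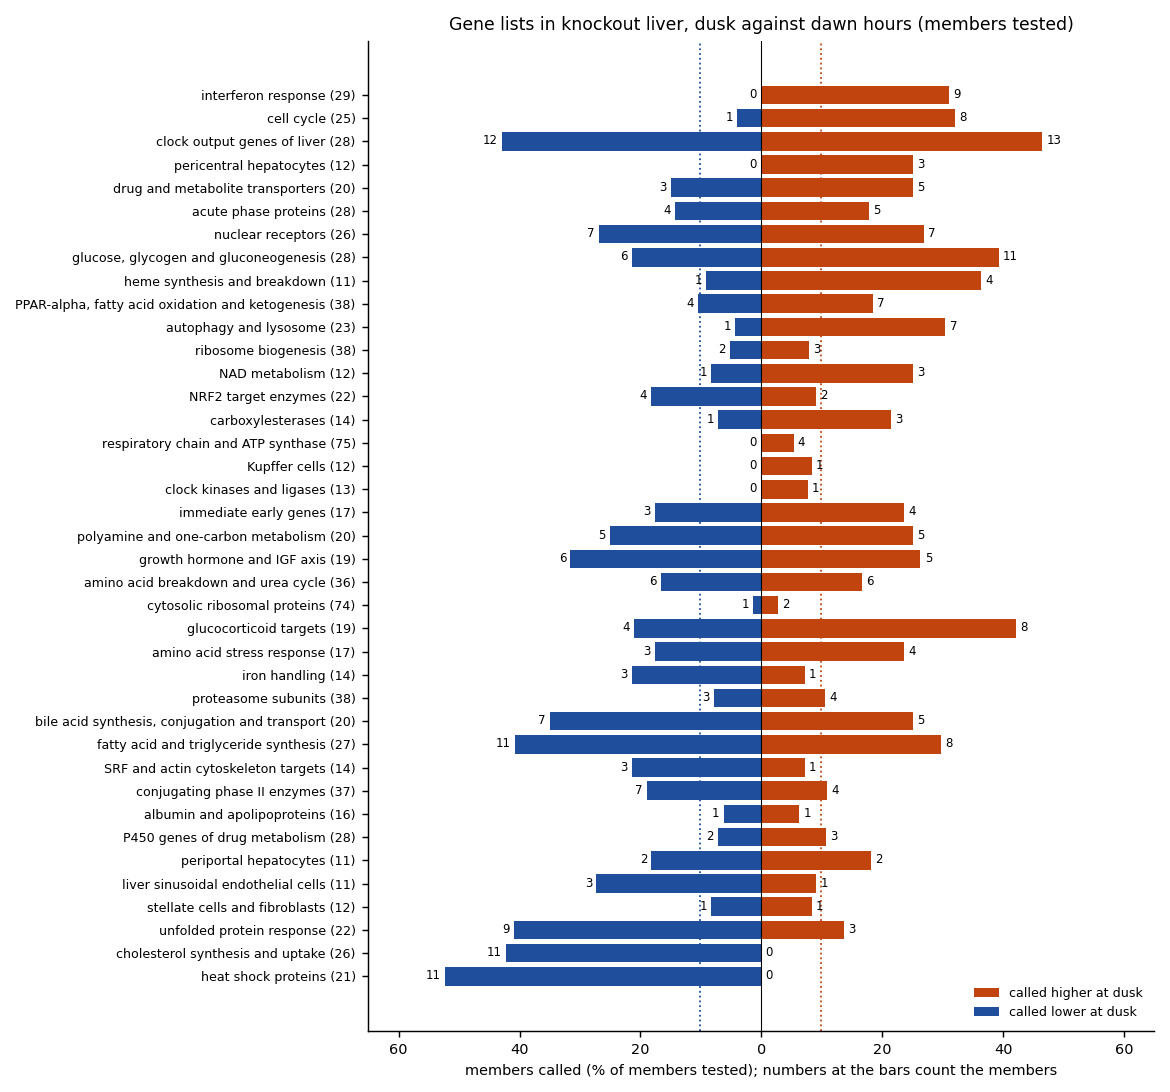
Share of tested members called higher at dusk (orange, to the right) and lower at dusk (blue, to the left) in each gene list with at least 10 tested members, in % of the members tested, ordered by median log2 difference, with member counts at the bars and dotted lines at the shares of all tested genes, 9.78% and 10.1%. Heat shock and cholesterol lists extend only to the lower side, clock outputs extend far to both sides, and ribosomal and respiratory chain lists stay inside the dotted lines.

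Markers of other liver cells are given beside the 9.78% higher and 10.1% lower of all genes. In bulk liver, fewer cells of a type and less RNA per cell cannot be told apart. Kupffer cell markers summed to 622.3 to 814.2 CPM at dusk and 581.9 to 743.7 at dawn with 1 of 12 higher, endothelial markers to 553.6 to 697.1 and 603.4 to 733.6 with 1 of 11 higher and 3 lower, and stellate markers to 431.7 to 534.5 and 537.0 to 587.4 with 1 of 12 in each direction, so that every dusk sum of the stellate list was below every dawn sum. Cholangiocyte markers summed to 81.18 to 101.6 CPM at dusk and 77.49 to 93.92 at dawn, with 1 of 8 higher and 2 lower. The endothelial lower count was 2 to 4 without single libraries. Of the blood markers 4 of 6 tested, all globin genes, were higher at dusk, with summed levels of 258.6 to 346.7 CPM against 146.6 to 261.5. That count was 1 without ZT08 set I, ZT12 set I or ZT24 set P and 2 without ZT08 set P or ZT24 set I. Hba-a1, an alpha globin with near-identical copies, had 29.3 to 41.6 CPM at dusk and 10.3 to 19.4 at dawn (1.12, SE 0.13, edgeR adjusted p = 0.000525). The part of blood or any other cell type in the changes above was not tested.

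Within the dusk hours, 201 genes differed between ZT12 and ZT08 (1.4%), 111 higher (0.774%) and 90 lower (0.628%) at ZT12. Calls here changed with single libraries: there were 5 and 6 without ZT08 set I, 38 and 27 without ZT08 set P, 25 and 7 without ZT12 set I, and 168 higher without ZT20 set P or ZT24 set I. Fkbp5, which rose from ZT08 to ZT12 by 1.72 (SE 0.19, edgeR adjusted p = 0.00563), and Nampt, by 0.90 (SE 0.13, edgeR adjusted p = 0.0183), were among the called rises, the former lost without ZT08 set I and the latter without either ZT08 library or ZT12 set I. Ren1, a renin gene that shares sequence with Ren2 where that copy is present, showed 2.62 and 4.12 CPM at ZT08 and 13.2 and 12.0 at ZT12 (1.93, SE 0.33, edgeR adjusted p = 0.0317), and its call was lost without either ZT08 library or ZT12 set I. Hamp fell by 2.01 (SE 0.30, edgeR adjusted p = 0.0201), a call lost without ZT08 set I or either ZT12 library.

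Within the dawn hours, 64 genes differed between ZT24 and ZT20 (0.447%), 13 higher (0.0907%) and 51 lower (0.356%) at ZT24. There were 7 and 31 without ZT20 set I, 28 higher without ZT20 set P, 20 lower without ZT24 set I, and 59 and 108 without ZT24 set P. Per1 fell by 2.81 (SE 0.22, edgeR adjusted p = 0.00133) from ZT20 to ZT24. Selenbp2, a liver selenium-binding protein with the near copy Selenbp1, showed 823 and 663 CPM at ZT20 and 134 and 142 at ZT24 (−2.40, SE 0.19, edgeR adjusted p = 0.00133). Mt1, metallothionein 1, showed 35.3 and 13.2 CPM at ZT20 and 2.38 and 3.31 at ZT24 (−2.99, SE 0.35, edgeR adjusted p = 0.00714). None of these 3 calls was lost on leaving out a single library. Nr1d1 rose from 1.78 and 2.60 CPM to 30.9 and 12.0 (3.23, SE 0.36, edgeR adjusted p = 0.00665), a call lost without ZT20 set I.

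The same dusk-dawn contrast was taken in wild type to ask how much of the programme depended on genotype. In wild type 1950 of 14884 genes were called (13.1%), 6.64% higher and 6.46% lower. Of the 1401 genes higher at dusk in knockout, 1159 (82.7%) had the same sign in wild type, 517 (36.9%) were called in the same direction and 9 in the opposite direction. The 517 were 53.9% of the 960 genes called higher in wild type and tested in both. Of the 1445 lower genes, 1144 (79.2%) had the same sign, 537 (37.2%) were called in the same direction, which is 56.7% of the 947 wild-type calls, and 5 in the opposite. Median changes of these genes were 0.42 in knockout and 0.37 in wild type for the higher, and −0.50 and −0.34 for the lower, a comparison that favours knockout because its values chose the genes. Over all genes tested the median was 0.00070 in knockout and 0.038 in wild type. The share with the same sign in both genotypes was not taken over all genes.

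Tested directly, the difference between genotypes passed the threshold for 2 of 14884 genes (0.0134%), Cyp17a1 and the gene model Gm2788, which lies outside the naming rule and was named after its value was seen. Both had the lower dusk-dawn difference in knockout. At an unadjusted p under 0.05 there were 1659 (11.1%), and DESeq2 called 48 higher and 73 lower. Few calls do not show that the genotypes were alike, and the count turned on 1 wild-type library: without wild-type ZT20 set P there were 1496 higher and 3169 lower. Without wild-type ZT20 set I there were 9 and 17, and without wild-type ZT12 set P 5 and 10. The common dispersion, the spread that the fit estimates over all genes, was 0.0363 with 16 libraries and 0.0125 without either wild-type ZT20 library. The fit without ZT20 set P had ZT20 set I as its only wild-type library of that time. Relative to each gene's median, values of wild-type ZT20 set I correlated with GC content at r of 0.679, the highest of the 16 libraries. In wild-type ZT20 set P the r was 0.115. What this difference did to the count was not tested. With set P alone, edgeR called 0 genes in either direction, with 252 higher and 262 lower at an unadjusted p under 0.05.

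Cyp17a1 (chromosome 19, 46667165 to 46673172), the steroid 17-alpha-hydroxylase, was lower at dusk in knockout and higher at dusk in wild type. In knockout it showed 4.10 and 5.89 CPM at ZT08, 16.1 and 17.1 at ZT12, 35.3 and 27 at ZT20, and 11.9 and 19.4 at ZT24, so that only ZT08 was below all dawn libraries (−1.28, SE 0.17, edgeR adjusted p = 0.000836). In wild type it showed 21.4 and 13.7 CPM at ZT08, 237 and 74.6 at ZT12, 21.9 and 8.54 at ZT20, and 7.60 and 4.57 at ZT24 (2.43, edgeR adjusted p = 0.000207), the highest values at ZT12. The difference between genotypes was −3.71 (SE 0.31, edgeR adjusted p = 0.00322). It was −3.76 in set P alone, where it was not called, and it was not called without the set letter in the fit (−3.72, edgeR adjusted p = 0.0965).

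Other genes differed in sign between genotypes without passing that test. Srebf1, higher at dusk in knockout, had 167, 199, 91.9 and 169 CPM at dusk and 424, 258, 391 and 201 at dawn in wild type (−1.0), and the difference between genotypes had an edgeR adjusted p of 0.201. Hamp, at 6.03 to 72.1 CPM in knockout dusk libraries, had 342 to 393 CPM in those of wild type, and its difference between genotypes, −2.13, had an edgeR adjusted p of 0.199.

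The naming rule took the 10 genes with the smallest knockout p among those called the same way in both genotypes. All 10 were lower at dusk in this ranking by knockout p alone. They include Arntl, Nfil3, Tubb2a, Chka, Ppp1r3c and Avpr1a, described above. Clpx, which feeds proteins to the mitochondrial ClpP protease, showed 59.0 to 77.4 CPM at dusk and 300.1 to 369 at dawn in knockout (−2.27, SE 0.06) and −1.73 in wild type. Cldn1, a tight junction claudin, showed 55.7 to 63.4 CPM at dusk and 182 to 252 at dawn (−1.85, SE 0.06) and −1.98 in wild type. Rnf125, a ubiquitin ligase, had −2.06 (SE 0.06) and −1.38, and St5 −2.28 (SE 0.08) and −1.68. For none of the 10 did the difference between genotypes pass the threshold of edgeR's test.

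**Figure D4:**
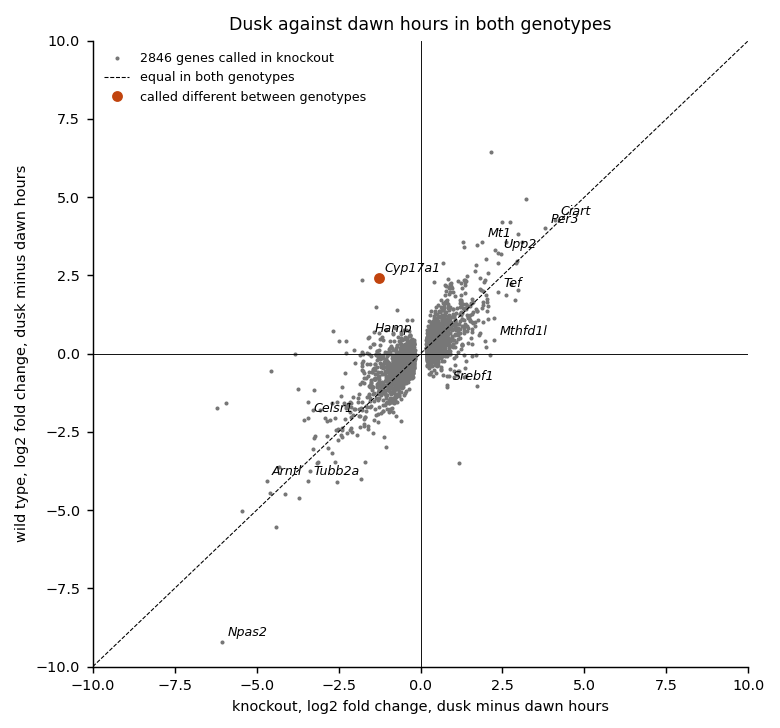
Log2 fold change of dusk against dawn hours in wild type (vertical axis) against that in knockout (horizontal axis) for the 2846 genes called in knockout, with the dashed line marking equal values. Most points share a sign and lie along the line, and Cyp17a1, marked in orange, lies at −1.28 in knockout and 2.43 in wild type. Wild-type Npas2 had hardly any count at dusk, so its position on the vertical axis depends on the fit.

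**Figure D5:**
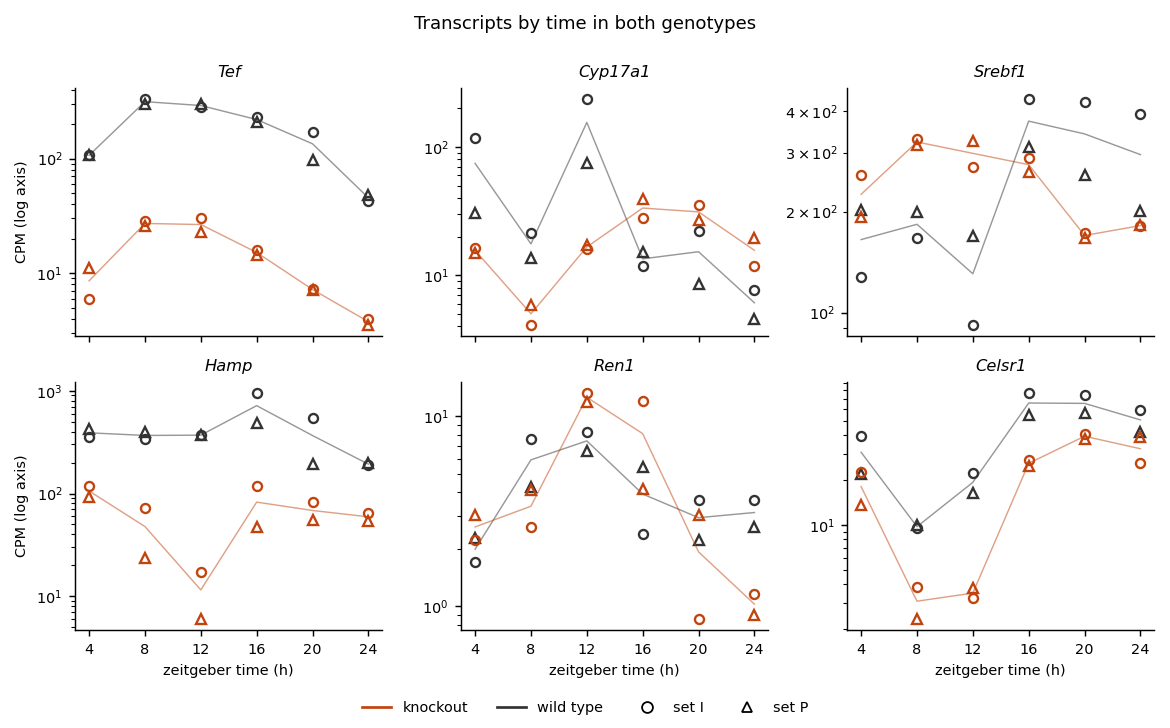
CPM (log axis) of 6 transcripts against zeitgeber time in hours in knockout (orange) and wild type (black), with circles for set I, triangles for set P and lines through the time means. Tef keeps its shape at a lower level in knockout, Cyp17a1 has its highest mean at ZT12 in wild type and at ZT16 in knockout, Srebf1 differs in sign at dusk, and Hamp, Ren1 and Celsr1 dip or rise further in knockout at ZT08 or ZT12.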

How the data were processed

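Liver was lysed in guanidium thiocyanate for RNA, which was sequenced as TruSeq stranded mRNA libraries, per the labels' protocols. The authors deposited whole-number read counts for Ensembl genes, without normalization, in 24 columns, all used. The submitters' processing notes name STAR 2.4.0i and mm10. How reads were counted (tool, annotation, strand) is not given in the sources used here, so counts of overlapping, antisense and near-identical genes may be split in ways that cannot be checked. Symbols and coordinates came from GENCODE M21 (mm10) for 54409 of 54532 genes.

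Genes were kept with filterByExpr (minimum count 10) by group and tested with edgeR 4.0.16 (R 4.3.3): TMM scaling, a quasi-likelihood fit of 4 time means plus the set letter over the 8 knockout libraries, Benjamini-Hochberg adjustment over all 14332 genes and calls at 0.05. The set letter stood in the fit because the comparison matches libraries by it. Wild type and the difference between genotypes came from 1 fit of 16 libraries (8 means plus the set letter within genotype, 14884 genes). The fits had 3 and 6 residual degrees of freedom. CPM used 1 TMM scale over all 24 libraries. No pair of libraries was a duplicate: chi-square per gene between the 2 libraries of a time was at least 14.8. The procedure was tested on simulated data. Totals of 14807940 to 17214706 counts limit precision for genes of a few CPM, and 2 libraries a time limit it throughout.

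Named genes are all clock genes, the 15 largest rises and falls with separate libraries, up to 4 members per list by p, the 4 largest changes in each other contrast, the called genotype differences and the 10 smallest p called in both genotypes. Por, St3gal5, Slc37a4, Slc2a2, Pklr, Fbp1, Fasn, Acly, Scd1, Acacb and Cyp7a1 were added for their roles after their values were seen, as were the called amino acid stress, growth hormone axis and immediate early genes given without values. The comparison and the 52 gene lists were chosen with earlier results of these data known. Not every gene under this rule is reported here. Alternatives used DESeq2 1.42.0, other scaling, filters, thresholds and fits, and each library left out.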

Additional observations from a re-analysis of the deposited data

Results flagged for a closer look

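Among 224 sets of 4 knockout libraries, the dusk or the dawn libraries of 1 named gene each, 10 held 1 library far from the other 3. Chance alone gives about 1 in 20. In the dusk hours, Ccne1 was high at ZT12 set I (7.80 CPM, others 3.26 to 3.76) and Chrm3 was high at ZT12 set P (1.71 CPM, others 0 to 0.117). In the dawn hours, ZT24 set P was apart for Abcb11 (1148 CPM, others 894 to 920), Cpt1a (255 CPM, others 306 to 317), Loxl4 (33.9 CPM, others 4.06 to 8.05) and Tubb2a (129 CPM, others 86.9 to 93.8). ZT20 set P was apart for Mfsd2a (16.2 CPM, others 3.99 to 5.29), Npas2 (9.31 CPM, others 13.8 to 14.1), Ren1 (3.01 CPM, others 0.861 to 1.16) and Slc37a4 (166 CPM, others 114 to 117).

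The dusk-dawn difference itself differed between genotypes by edgeR's test for Cyp17a1, by −3.71, and for Gm2788, by −2.14.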

How the results depend on the processing

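None of the 121 called results for single genes changed sign under any alternative run. Those runs reuse libraries in which the results were called, so a kept sign was likely beforehand and is no support. Of the 121 results, 28 kept their call in every alternative run, and the set letters alone, with 4 libraries each, lost the most (81 in set I, 62 in set P). Depth was similar in the 8 knockout libraries, and 2 libraries a time leave the spread estimated from few values.

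Counts called for dusk against dawn, 1401 higher and 1445 lower, were 667 and 755 at an adjusted p under 0.01, 550 and 639 with all 24 libraries in the fit, 868 and 922 with 1 mean per set of hours, 38 and 72 in set I, 142 and 211 in set P, and 916 higher with DESeq2. Leaving out each library gave 855 to 1153 higher and 971 to 1278 lower. For ZT08 against ZT20, 903 and 997 became 271 and 403 at 0.01, 209 and 301 with 24 libraries and 559 higher with DESeq2, with 262 to 883 and 363 to 964 over the libraries left out. For ZT12 against ZT24, 848 and 828 became 379 and 377 at 0.01 and 282 and 341 with 24 libraries, with 320 to 868 and 332 to 861.

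For ZT12 against ZT08, 111 and 90 became 13 and 9 at 0.01, 50 and 54 with 12 knockout libraries, 2 and 2 with 24 libraries, 607 and 455 without a count filter and 191 higher with DESeq2, with 5 to 168 and 6 to 116. For ZT24 against ZT20, 13 and 51 became 5 and 25 at 0.01, 1 and 4 with 24 libraries, 322 and 384 without a filter and 41 and 117 with DESeq2, with 7 to 59 and 20 to 108. For the difference between genotypes, 0 and 2 became 48 and 73 with DESeq2, 19 and 40 without a filter, 10 and 12 with 24 libraries, 4 lower after removing GC and length slopes and 0 lower in set P, with 0 to 1496 and 2 to 3169. Fewer libraries enter the fits that leave 1 out. Without a filter the knockout fit estimated an infinite prior weight, so that genes had no spread of their own beyond the trend with abundance. The cause of the other shifts was not tested.

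The evidence from correlations that the set letters pair the libraries was weak. Deviations of same-letter libraries from their time means correlated positively in all 6 pairs of times (0.075 to 0.193), and above 0.1 in 4 of 6. The correlation with GC content was lower in knockout set P than in knockout set I at each of these times. Set I and set P had 0.0493 and −0.132 at ZT08, and 0.0276 and −0.215 at ZT12. At ZT20 they had −0.133 and −0.365, and at ZT24 0.00233 and −0.321. Without this replicate block, calls were 936 and 997 for dusk against dawn, 456 and 586 for ZT08 against ZT20, 554 and 556 for ZT12 against ZT24, 34 and 28 for ZT12 against ZT08, 6 and 16 for ZT24 against ZT20, and 0 and 0 between genotypes by edgeR (539 and 583 at an unadjusted p under 0.05), with 13 single-gene calls lost. These were, in the dusk-dawn contrast, Acly, Bhlhe40, Cyp7a1, Fasn, Hmgcs1, Rora and Srsf5, then Ren1, Hamp and Nampt within dusk, Mt1 and Nr1d1 within dawn, and Cyp17a1 between genotypes.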
